A study of Caenorhabditis elegans with 4 samples.

Results

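The sites described here are the TAF-1 peaks of Caenorhabditis elegans chromosome V. They were chosen by chromosome alone, as all peaks of the series list on V, and number 445 of the 2987 peaks of that list, 2984 of which lie on the 6 nuclear chromosomes. The peaks come from chromatin immunoprecipitation and sequencing (ChIP-seq) of mixed-stage embryos of N2, the wild-type laboratory strain, from populations of males and hermaphrodites grown at 20 °C. The ChIP libraries, replicates 1 and 2, were made with a rabbit polyclonal antibody against TAF-1, and 2 input DNA libraries have no peak list and were not analysed here. All groups share strain, genotype and stage. Whether the replicates are separate cultures is not in the labels, so differences between them may be technical, and whole embryos mix many cell types. On V, replicate 1 had 290 of its 1882 nuclear peaks and replicate 2 had 301 of 2090.

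TAF-1 belongs to TFIID, the general transcription factor that binds core promoters and helps RNA polymerase II to start transcription. A TAF-1 peak is therefore usually read as a place where the promoter machinery sat on DNA in some of the cells. Chromosome V of C. elegans is known for a conserved, gene-rich centre and for arms that carry repeats and large, fast-evolving gene families, among them many chemoreceptor genes. No genome or annotation of the build of the files (WormBase WS220) was at hand, so peaks are given by position and were not assigned to genes.

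The span of V, counted from base 1 up to the last base under a peak of the 3 lists, was 20.9 Mb. Its centre was taken as the central 33.3% of that span, from base 6957961 to base 13915922, with a left and a right arm of the same length beside it. The first series peak on V began at base 8559 and the last ended at base 20873473.

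TAF-1 sites were sparser on V than on the other autosomes. V held 445 series peaks, or 21.3 per Mb (95% Poisson interval 19.4 to 23.4), against 30.8 per Mb (29.4 to 32.2) on the other 4 autosomes together. V thus had 19.0% of autosomal peaks (17.4 to 20.6%) on 25.3% of the autosomal span. Its density was 0.692 times that of the others (0.623 to 0.768), which passed the threshold (exact binomial test, two-sided, p = 5.4e-13, adjusted p = 8.1e-12). This sparseness was known before the tests were chosen, so these p-values are not those of a test set in advance. In the centre of V the density was 0.797 times that of the other centres (0.668 to 0.947), and in the arms 0.641 times that of the other arms (0.561 to 0.730), values computed after seeing the data. The centre ratio was 0.849 (0.688 to 1.04) in replicate 1, which includes 1, and 0.796 (0.631 to 0.997) in replicate 2. For the whole chromosome the replicate 1 list gave 0.730 (0.640 to 0.831) and the replicate 2 list 0.672 (0.591 to 0.762). The series list gave 0.715 when peaks within 10 kb of each other were counted once. These tests count neighbouring peaks as independent, which makes their intervals too narrow where peaks cluster.

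Within V, the centre had 24.1 series peaks per Mb (20.6 to 28.1), the left arm 20.3 (17.1 to 23.9) and the right arm 19.5 (16.4 to 23.1). The centre held 168 of 445 peaks, or 37.8% (33.2 to 42.4%), which missed the threshold against an even spread of 33.3% after adjustment (two-sided exact binomial p = 0.0499, adjusted p = 0.13). On the other 4 autosomes the centre held 622 of 1898 peaks, or 32.8%, and the difference of 4.98 percentage points (0.10 to 10.0) also missed it (Fisher's exact adjusted p = 0.13). The arms were alike in number, with 141 peaks on the left and 136 on the right (50.9% on the left, 44.9 to 56.9%, exact binomial adjusted p = 0.81). The answer for the centre depended on where it ends. The central 50% of the span held 59.8% of V peaks against 48.8% on the other autosomes, 10.9 points apart (5.79 to 15.9, Fisher's exact adjusted p = 0.00029).

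**Figure D1:**
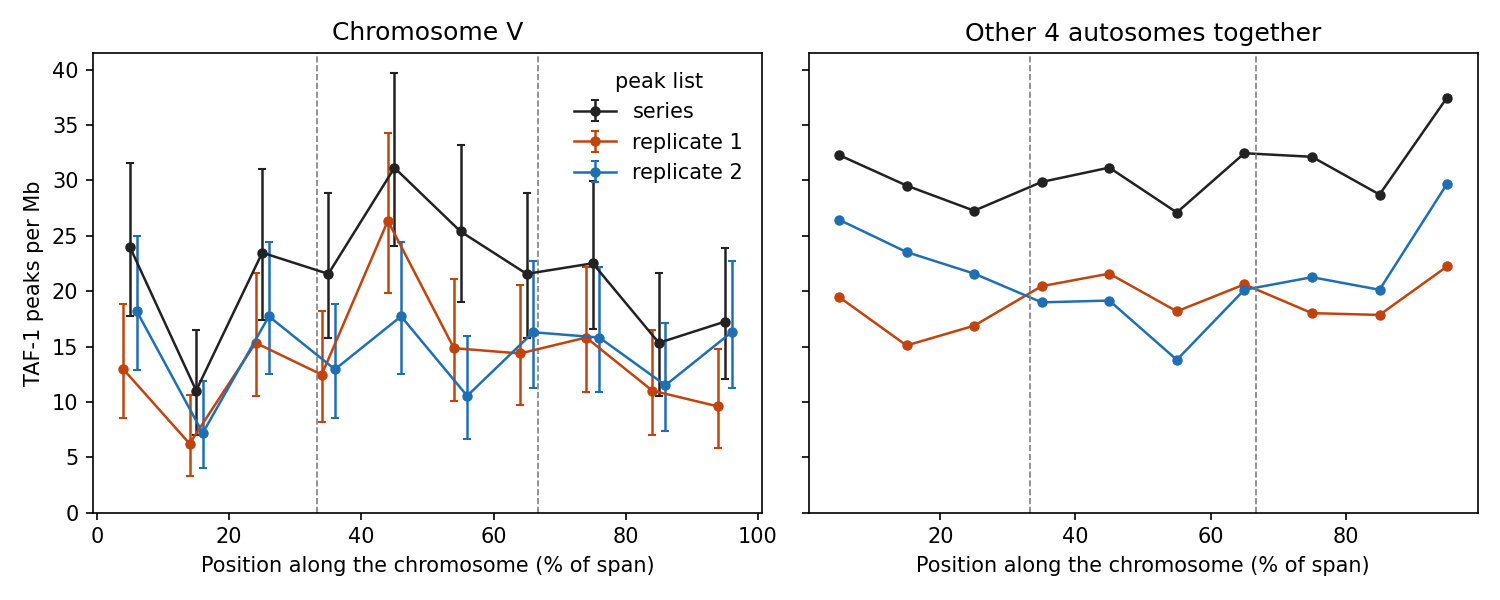
TAF-1 peaks per Mb (vertical axis) in 10 equal parts of the chromosome (horizontal axis, % of the span) for the series list and both replicate lists. Left, chromosome V with 95% Poisson intervals; right, the other 4 autosomes summed, without intervals; dashed lines bound the centre. On V the series list is lowest at 11.02 per Mb, between 10 and 20% of the span, and highest at 31.1 per Mb, between 40 and 50%.

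The plot of density along V shows a trough in the left arm and a crest just left of the middle. Between 10 and 20% of the span lay 23 series peaks, or 11.02 per Mb (6.98 to 16.5), 13 replicate 1 peaks and 15 replicate 2 peaks, the lowest number of the 10 parts in each list. Between 40 and 50% of the span lay 65 series peaks, or 31.1 per Mb (24.0 to 39.7), and 55 replicate 1 peaks, the highest number in those lists. Replicate 2 had 37 peaks there and 38 in the first part of the left arm, so its crest was no higher than its count near the chromosome end. Its median score was 452.62 in the crest and 95.69 in that first part. In the crest, single replicate 2 peaks overlapped whole runs of series peaks, described below. The peaks of the crest also scored high, with a median series score of 13.5 against 9.38 for all of V.

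Support by both replicates was more frequent in the centre of V than in its arms. Overlap means at least 1 shared base. Over all nuclear series peaks, 41.8% overlapped a peak of each replicate, and on V 195 of 445 did (43.8%, exact 95% interval 39.2 to 48.6%), a share close to that background. The 2539 peaks of the other nuclear chromosomes had 41.4%, and V minus the others came to 2.39 points (-2.54 to 7.40, Fisher's exact adjusted p = 0.40). In the centre of V, 91 of 168 peaks were found in both replicates (54.2%, 46.3 to 61.9%), against 104 of 277 in the arms (37.5%, 31.8 to 43.5%). The difference of 16.6 points (7.08 to 25.8) passed the threshold (Fisher's exact p = 0.00079, adjusted p = 0.0059). Neighbouring peaks were counted as independent, although 1 replicate 2 peak can support up to 6 V series peaks and 1 replicate 1 peak up to 8. The interval is thus too narrow where peaks cluster, and counting peaks within 10 kb once was not tried for this difference. Both arms were low, at 37.6% on the left and 37.5% on the right. The difference did not pass with a reciprocal overlap of 50% (6.55% against 4.33%, 2.22 points), midpoints within 100 bp (2.85 points) or the top 50% of peaks by score (11.4 points). The reciprocal rule leaves out pairs of very unlike width. On V, replicate 2 peaks were 3.40 times as wide as their series partners in the median.

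That difference kept its direction but missed the threshold without replicate 1, and whether the replicates differ in it was not tested. Any overlap with replicate 1, whether or not replicate 2 had the site, was found for 72.6% of centre and 52.7% of arm peaks, 19.9 points apart (10.7 to 28.4, Fisher's exact adjusted p = 0.00029). These centre peaks include a run of 8, at 10605647 to 10612451, that a single 6931-bp replicate 1 peak covered. Any overlap with replicate 2 was found for 57.7% and 52.0%, 5.75 points apart (-3.79 to 15.1, Fisher's exact adjusted p = 0.36). On the other autosomes the shares found in both replicates were 43.6% in the centres and 37.4% in the arms. The ratio of the odds ratios, V over the other autosomes, was 1.52 (95% Wald interval 0.98 to 2.35), which includes 1. With X added the shares elsewhere were 44.4% and 40.1%, and the ratio was 1.64 (1.08 to 2.51), which does not. Both ratios were chosen after seeing the data and are unadjusted, so whether the step on V exceeds that elsewhere depended on the background.

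**Figure D2:**
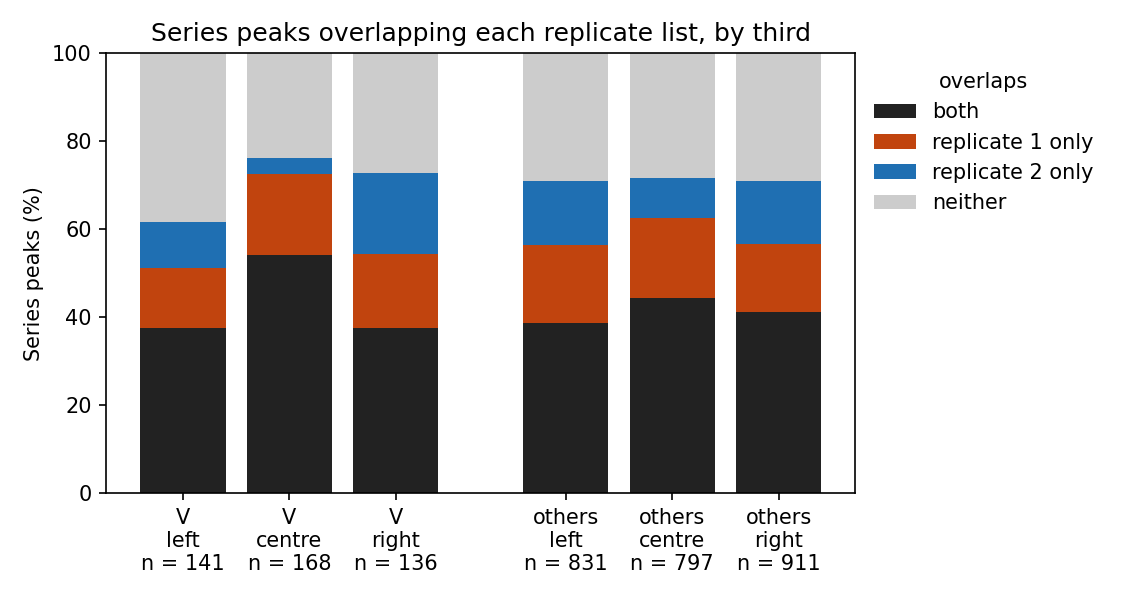
Share of series peaks (vertical axis, %) that overlap both replicates, replicate 1 only, replicate 2 only or neither, for the left arm, centre and right arm of V and of the other nuclear chromosomes, with the number of peaks under each bar. The centre of V has 54.2% in both replicates and 3.57% in replicate 2 only.

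The remaining V peaks fell into 3 classes. Replicate 1 alone supported 73 (16.4%, against 16.9% of all nuclear series peaks), replicate 2 alone supported 46 (10.3%, against 12.4%), and 131 had neither (29.4%, against 29.0%). Each of these shares was near its background. Peaks with replicate 2 only were rare in the centre, where there were 6 of 168 (3.57%, 1.32 to 7.61%), and more frequent on the right arm, where there were 25 of 136 (18.4%, 12.3 to 25.9%). Peaks in neither list made up 54 of 141 on the left arm (38.3%, 30.2 to 46.8%), 40 of 168 in the centre (23.8%) and 37 of 136 on the right arm (27.2%). On the other nuclear chromosomes, replicate 2 alone held 9.03% of centre and 14.4% of arm peaks, and neither replicate held 28.5% and 29.1%. These shares by arm and class were not tested one by one, so none is shown to be particular to V.

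Counting only peaks found in both replicates, V differed from the other autosomes in its arms, while its centre was not shown to differ from theirs. The centre of V had 13.1 such peaks per Mb (10.5 to 16.1) and the other centres 13.2 (11.7 to 14.9), a ratio of 0.991 (0.773 to 1.26). The arms of V had 7.47 per Mb (6.11 to 9.06) and the other arms 11.6 (10.6 to 12.7), a ratio of 0.644 (0.515 to 0.797). Of these peaks, 46.7% lay in the centre on V and 36.2% on the other autosomes, 10.4 points apart (2.72 to 18.2, Fisher's exact adjusted p = 0.033). Peaks without support from both replicates were sparser on V in the centre (ratio 0.648, 0.499 to 0.831) and in the arms (0.639, 0.539 to 0.754) alike. The density ratios of centre and arms were computed after seeing the data.

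Scores on V were slightly higher than on the other chromosomes pooled, but not than on each of them. The score is the authors' peak caller's value per peak, on a scale the files do not state, and is used here only within a list. V peaks ran from 1.32 to 182.08 with a median of 9.38 (quartiles 4.85 and 19.1), and the median on chromosome IV was 9.48. Above the median of all nuclear series peaks, 8.48, lay 248 of 445 V peaks (55.7%) and 1243 of 2539 others (49.0%). This difference of 6.77 points (1.74 to 11.7) just passed the threshold (Fisher's exact adjusted p = 0.044). It did not pass in any of 5 alternatives, and without X among the other chromosomes, where it was 6.78 points, the adjusted p was 0.057. Within V, 61.3% of centre and 52.3% of arm peaks lay above that median (8.96 points, -0.55 to 18.1, Fisher's exact adjusted p = 0.13).

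Peaks found in both replicates had the highest scores. The 195 V peaks that both replicates held scored 20.7 in the median (quartiles 10.3 and 36.8). The median was 9.27 where replicate 1 alone held the peak, 5.21 where replicate 2 alone did, and 5.78 where neither did. Of the V peaks in the top 25% of nuclear scores (above 17.5), 109 of 123 were in both replicates (88.6%, 81.6 to 93.6%) and 0 of 123 in neither, which allows a share of up to 2.44%. Elsewhere 525 of 623 such peaks were in both (84.3%, 81.2 to 87.0%). In the lowest 25%, at 4.81 or below, 22 of 111 V peaks were in both (19.8%, 12.9 to 28.5%). The series scores are not independent of the replicate lists if they were made from the same reads, a point on which the sources are silent.

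**Figure D3:**
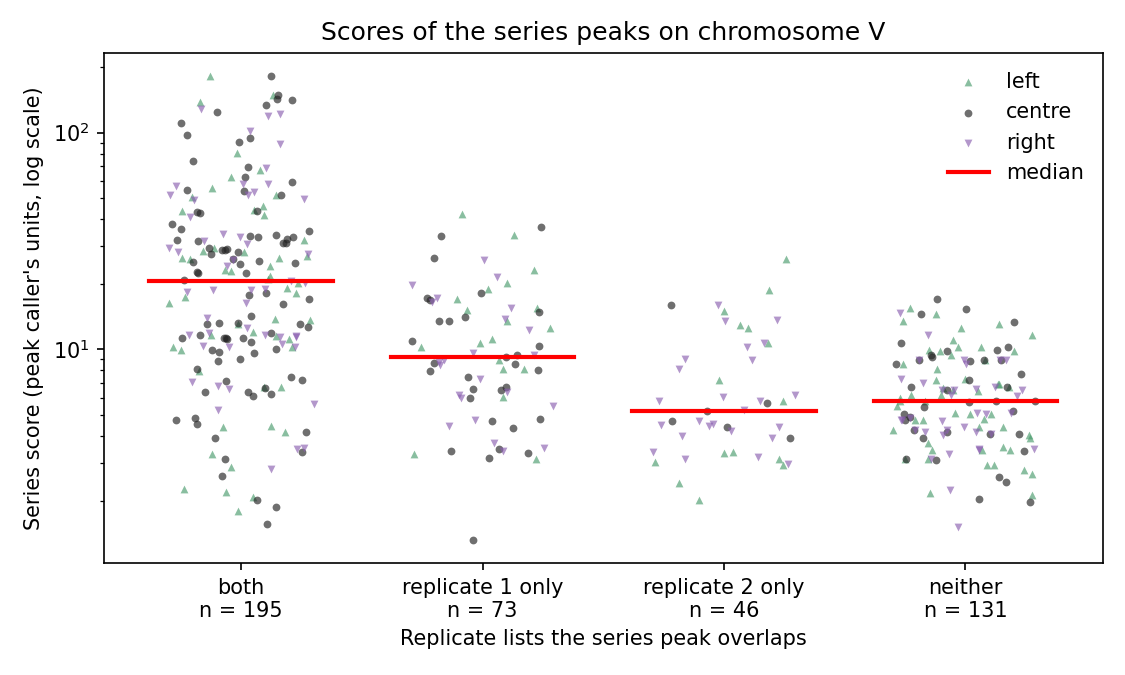
Series score of each of the 445 V peaks (vertical axis, caller's units, log scale) by the replicate lists it overlaps (horizontal axis), with symbols for left arm, centre and right arm and red lines at the medians. The medians run from 20.7 for both down to 5.21 with replicate 2 only, and the ranges overlap.

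Most V peaks were narrow. Widths ran from 146 to 8278 bp with a median of 252 bp (quartiles 184 and 364 bp). The median was 273.5 bp in the centre, 231 bp on the left arm and 252.5 bp on the right. The share above the nuclear median of 241 bp was 52.4% on V and 49.6% elsewhere (2.77 points, -2.26 to 7.77, Fisher's exact adjusted p = 0.38). It was 56.0% in the centre of V and 50.2% in its arms (5.77 points, -3.78 to 15.1, Fisher's exact adjusted p = 0.36). The centre of V had 71.0 kb under series peaks (1.02% of its length), against 43.6 kb on the left arm (0.627%) and 42.1 kb on the right arm (0.605%). Wide peaks scored higher, with Spearman's rho of 0.602 between score and width over the 445 peaks, a description over sites of the same libraries.

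Peaks of at least 1000 bp were 18 of 445 on V (4.04%) and 51 of 2539 elsewhere (2.01%). Of the 18, 13 lay in the centre, 1 on the left arm and 4 on the right, and 17 were found in both replicates. A single 100-kb window of the centre, described below, held 7 of them, so these counts lean on 1 place. The shares of wide peaks were not tested. The exception was a 2320-bp peak at V 10606520 to 10608839, which scored 10.99. It lay inside a 6931-bp replicate 1 peak of score 1547.1 and overlapped no replicate 2 peak.

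**Figure D4:**
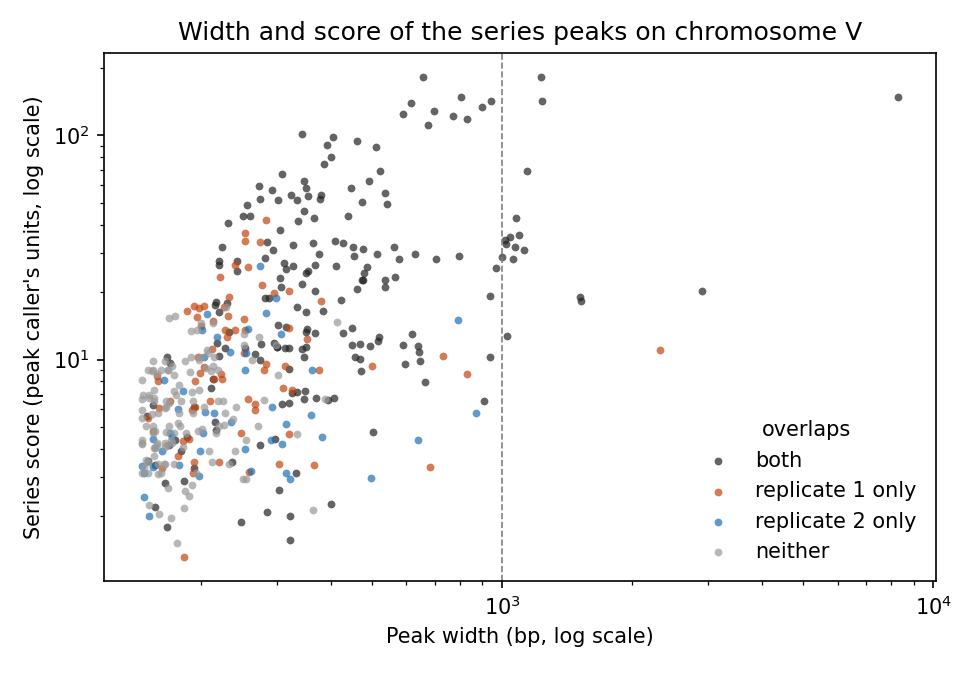
Width (horizontal axis, bp, log scale) against series score (vertical axis, caller's units, log scale) of the 445 V peaks, coloured by the replicate lists they overlap. The dashed line marks 1000 bp, and 17 of the 18 peaks at or beyond it overlap both replicates.

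The 10 highest-scoring V sites were all found in both replicates. The centre held 6 of them, the left arm 3 and the right arm 1. Their replicate 2 partner scored 3100, the ceiling of that list, at 8 of 10 sites. Their replicate 1 partner scored 3100 at 5, the highest replicate 1 score on V, though that list reached 3171.99 on the other autosomes.

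The strongest V site was a pair of adjoining peaks near the middle of the chromosome. The peak at 9089251 to 9090481 scored 182.08, rank 4 in the whole series list, and its neighbour at 9087330 to 9088567 scored 141.8. Replicate 1 resolved them as separate peaks, both at 3100, whereas a single 5105-bp replicate 2 peak of score 3100 covered both. They belong to a run of 6 peaks with gaps under 1 kb, from 9086777 to 9091630, the weakest of which scored 6.39. All 6 were found in both replicates, but the same 5105-bp replicate 2 peak overlapped all of them. Their support in replicate 2 is therefore not separate. The pair is thus strong in all 3 lists, with weaker peaks packed around it.

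A second strong place lay at 7.9 Mb. The widest V peak, 8278 bp from 7916804 to 7925081, scored 148.53. Its partners spanned 8247 bp in replicate 1 and 9007 bp in replicate 2, both at 3100, so the breadth was present in each library. A 943-bp peak at 7912768 to 7913710, which scored 142.7, preceded it and was at 3100 in both replicates too.

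On the left arm, the strongest site was a 654-bp peak at 1804808 to 1805461, which scored 181.83 in the series list, 2718.6 in replicate 1 and 3100 in replicate 2. A peak at 6072167 to 6072971 scored 148.56 and reached 3100 in both replicates. One at 6088709 to 6089323 scored 138.84, with 2199.8 in replicate 1 and 3100 in replicate 2. All of them lay in the top 10 of the chromosome.

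The right arm had 1 member of the top 10 by series score. In replicate 1, 4 centre peaks reached 3100, with 1 on the left arm and 0 on the right. In replicate 2, however, 6 right-arm peaks did, as many as on the left arm (6) and about as many as in the centre (5). Among those 5 was the 5105-bp peak that covered both peaks of the strongest site. The strongest right-arm series peak, at 14685613 to 14686308, scored 128.19, with 1035.2 in replicate 1 and 1779.1 in replicate 2, and ranked 9th on V. The next were at 15320661 to 15321430 (121.67) and 19622193 to 19623020 (118.82), both at 3100 in replicate 2 and at 2819.2 and 2438 in replicate 1. The top 10 was completed by 2 centre peaks, at 9343683 to 9344578 (133.39) and 13868672 to 13869260 (124.73).

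Below the strongest sites stood a group of 7 peaks of nearly the same size in one 100-kb window. The window from 8800001 to 8900000 held 11 series peaks, 9 of them in both replicates, the most of any window on V together with that from 18700001 to 18800000. Its 7 wide peaks measured 1002 to 1127 bp and scored 28.71 to 42.63. They formed 2 blocks, at 8847347 to 8854019 and at 8889455 to 8898476, and within a block the wide peaks began 2370 to 3230 bp apart. A smaller peak found in both replicates accompanied each block, 221 bp wide with a score of 16.22 in the first and 213 bp wide with a score of 8.15 in the second.

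The blocks were alike in layout, though not in every peak. The 4 peaks of the first block found in both replicates, taken in order, recurred in the second at distances of 42087 to 42124 bp, so that their spacing matched to within 37 bp. The best replicate 1 partners stood 42054 to 42116 bp apart and the replicate 2 partners 42037 to 42163 bp apart. In replicate 2, 1 peak per block was partner to both the smaller peak and the wide peak after it. The replicate 2 distances of these pairs are thus the same value. The second block had a further wide peak with no counterpart, at 8897454 to 8898476, which scored 32.85. The first block had a 170-bp peak at 8852471 to 8852640, found in replicate 2 only (score 4.69), with no series counterpart in the second. In replicate 1 the wide peaks scored 717.51 to 1138.1, and in replicate 2 460.23 to 1487.7, all below 3100. The sources used here do not say how reads matching more than one place were treated, and whether the blocks share sequence or reads was not tested. The blocks were singled out after their values were seen.

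The other dense window on V differed in kind. From 18700001 to 18800000 lay 11 narrower peaks of 146 to 485 bp with scores of 3.36 to 25.94, of which 4 were found in both replicates. The window from 1800001 to 1900000 held 9 peaks, 2 of them in both replicates, one being the strongest of the left arm.

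Long empty stretches were more frequent on V than elsewhere, while its share of short gaps was near the background. The gap from one series peak to the next had a median of 22.2 kb on V (quartiles 3.64 and 67.6 kb) and 17.0 kb elsewhere (3.76 and 43.7 kb). Gaps under 1 kb were 13.9% of all nuclear gaps and 69 of 444 on V (15.5%, 12.3 to 19.3%), close to that background. The difference from the other chromosomes was 1.93 points (-1.45 to 5.81, Fisher's exact adjusted p = 0.38). In the centre of V, 33 of 168 gaps were under 1 kb (19.6%) and in the arms 36 of 276 (13.04%), 6.60 points apart (-0.34 to 14.1, Fisher's exact adjusted p = 0.13). Among the top 50% of peaks by score it was 17.5% against 5.52%, or 12.0 points (4.06 to 20.8, Fisher's exact adjusted p = 0.015). With the centre taken as the central 50% of the span it was 16.2% against 14.5%, or 1.70 points (Fisher's exact adjusted p = 0.74).

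**Figure D5:**
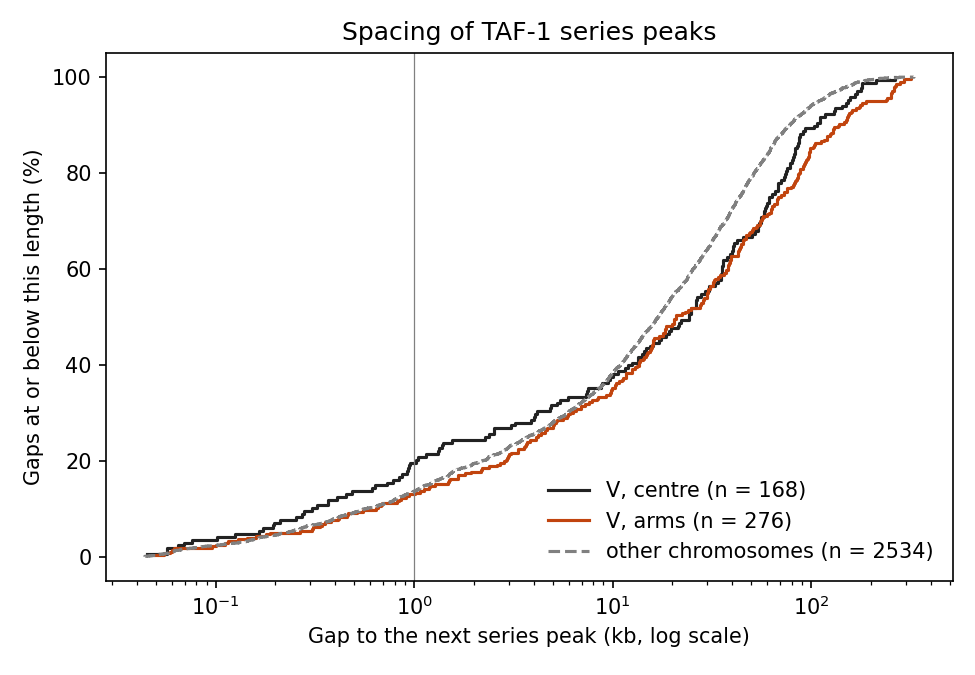
Cumulative share of gaps (vertical axis, %) at or below a given length (horizontal axis, kb, log scale) between neighbouring series peaks in the centre of V, the arms of V and the other nuclear chromosomes. The vertical line marks 1 kb, where the centre of V stands at 19.6%, its arms at 13.04% and the others at 13.6%, and the curves of V stay below the others at long gaps.

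Gaps above 100 kb were 59 of 444 on V (13.3%) and 151 of 2534 elsewhere (5.96%). Those above 200 kb were 16 on V and 14 on all other nuclear chromosomes together. The mean gap was 46.6 kb on V and 30.9 kb elsewhere. Whether the long gaps of V exceed what its lower density alone gives was not tested. Of 209 windows of 100 kb on V, 46 held no series peak (22.0%), against 3.95 to 13.7% on the other chromosomes, and 29 held no peak in any of the 3 lists. The variance of peak counts per window over their mean was 1.97 on V and 1.59 to 1.94 on the other chromosomes. The longest gaps on V were 318.2 kb (2949275 to 3267473), 295.3 kb (2305320 to 2600646) and 293.3 kb (19195009 to 19488339). The second was also empty in both replicate lists. The first held 2 peaks of each replicate, and the last held 5 replicate 2 peaks and none of replicate 1.

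Peaks that stood close together formed 41 runs with gaps under 1 kb, which took in 110 V peaks (24.7%, against 22.8% elsewhere). Runs of 2 peaks numbered 27, runs of 3 numbered 7, and 7 were longer, with at most 8 peaks. In 29 of 41 runs (70.7%) at least 1 peak was found in both replicates, and in 18 all were. Elsewhere it was 159 of 234 runs (67.9%) and 87, so the runs of V stood near that background. After the strongest run, described above, came a run at 9340325 to 9344578, with 4 peaks all in both replicates and a top score of 133.39. A single 6517-bp replicate 2 peak, at 9338411 to 9344927, covered these 4 peaks. The next run, at 14684776 to 14686308, had 2 peaks and a top score of 128.19.

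The share of peaks in the centre of V was not shown to differ between the replicate lists. Replicate 1 had 17.2 peaks per Mb in the centre, 11.8 on the left arm and 12.6 on the right. Replicate 2 had 14.2, 14.1 and 14.9. The centre thus held 120 of 290 replicate 1 peaks (41.4%) and 99 of 301 replicate 2 peaks (32.9%), 8.49 points apart (0.70 to 16.2), which missed the threshold after adjustment (Fisher's exact p = 0.034, adjusted p = 0.13). On the other autosomes the centres held 35.5% of replicate 1 and 27.7% of replicate 2 peaks, a gap of similar size. Sites shared by both lists enter both counts. The replicate 1 share on V was known before the tests were chosen. Of unshared peaks, 29 of 90 in replicate 1 (32.2%) and 23 of 124 in replicate 2 (18.5%) lay in the centre (13.7 points, 1.98 to 25.5, Fisher's exact adjusted p = 0.091). These shares were 35.8% and 18.5% on the other autosomes.

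Overlap between the replicates was not shown to differ between V and the other chromosomes. Over all nuclear chromosomes 67.6% of replicate 1 peaks overlapped replicate 2, and 200 of 290 did on V (69.0%, 63.3 to 74.2%), 1.63 points above the other chromosomes (-4.36 to 7.19, Fisher's exact adjusted p = 0.68). Of replicate 2 peaks, 54.1% overlapped replicate 1 over all nuclear chromosomes and 177 of 301 on V (58.8%, 53.01 to 64.4%), 5.48 points above the others (-0.61 to 11.4, Fisher's exact adjusted p = 0.13). Along V, 76.8% of replicate 2 peaks in the centre were shared, against 53.1% on the left arm and 47.1% on the right. On the other nuclear chromosomes they were 65.6%, 45.4% and 52.04%, so the centre was highest there too. For replicate 1 the shares were 75.8%, 68.3% and 60.2% on V and 66.7%, 66.2% and 69.0% elsewhere. Shared V peaks had higher medians, at 217 against 87.3 in replicate 1 scores and 304 against 82.6 in replicate 2 scores.

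Peaks of the same site lay close together but were of different breadth. Over 177 one-to-one pairs on V, midpoints were a median of 52.5 bp apart (quartiles 27.5 and 186 bp), and the replicate 2 peak was 2.32 times as wide in the median. Spearman's rho of the paired scores was 0.718, and 0.638 over the 161 pairs below 3100 in both. The other nuclear chromosomes had 0.674 to 0.812. These are descriptions across sites that share their libraries. Of the 241 V series peaks that overlapped replicate 2, 240 lay wholly inside 1 of its peaks, and 28 replicate 2 peaks took in 2 or more series peaks, up to 6. In replicate 1, 168 of 268 lay inside, and 11 peaks took in 2 or more, up to 8.

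Some replicate peaks on V had no series peak. Over all nuclear chromosomes 88.6% of replicate 1 and 64.3% of replicate 2 peaks overlapped the series list. On V it was 253 of 290 (87.2%) and 197 of 301 (65.4%), near those backgrounds. The 37 replicate 1 peaks left out had a median score of 78.05 against 166 for the rest, and 13 of them were shared with replicate 2. The 104 replicate 2 peaks left out had a median of 79.4 against 246, and 9 were shared with replicate 1. A few scored high. A 2764-bp replicate 1 peak at 5283172 to 5285935 scored 2004.2 and had a replicate 2 partner of score 259.63. Replicate 1 peaks at 17308522 to 17311687 (1688.5) and 17117721 to 17118992 (820.05) had no partner. In replicate 2 the highest was at the left end of the chromosome, at bases 2 to 825, with a score of 761.34 and a replicate 1 partner of 234.23, followed by unshared peaks at 18638018 to 18640333 (614.62) and 5218093 to 5219578 (577.14).

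Conversely, the strongest series peaks on V found in neither replicate were small. They measured 229 bp at 8289577 to 8289805 (score 17.12), 174 bp at 104565 to 104738 (15.56) and 169 bp at 7230883 to 7231051 (15.29). None ranked above 126th on V.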

How the data were processed

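Peak lists were analysed for both TAF-1 ChIP replicates and for the whole series. The build is WormBase WS220, per the file headers, and the lists name MACS (replicates) and MACS v2 (series) as the caller. Per the submitters' processing notes, BWA and ce10 were used, and their versions are not stated in these notes. The score of each peak is used as deposited. Cutoffs, the use of input and any pooling of reads are not stated there. Read depth is unknown, so the intervals cover counting error over peaks only. No list gives input values.

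Mitochondrial peaks were left out. Each peak was placed by its midpoint, and gaps run from peak end to next start. The 15 main tests were two-sided exact binomial tests of shares against the span and Fisher's exact tests of peak counts, adjusted together by the Benjamini-Hochberg method at 0.05. All of them count neighbouring peaks as independent, so their intervals are too narrow where peaks cluster. The functions behind 7 of them were tested on simulated data. Shares carry exact Clopper-Pearson intervals, densities exact Poisson intervals and differences Newcombe intervals, all at 95%. Adjusted p-values of an alternative replace the main p in the same family. A count of 0 allows 3 counts. One-to-one pairs were taken in order of shared bases.

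Named sites are the 10 highest-scoring V peaks, the 3 highest of each arm and the centre, the 3 widest, the 3 highest in neither replicate, the 3 highest of each replicate outside the series list, and the 3 densest 100-kb windows, longest gaps and highest-scoring runs. Members, tests and rules were chosen with earlier results of these data known, among them the sparseness of V and its replicate 1 centre share. Tests used scipy 1.17.1 with numpy 2.4.6, tables pandas 2.3.3 and figures matplotlib 3.10.9, under Python 3.11.15.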

Additional observations from a re-analysis of the deposited data

How the results depend on the processing

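Of 78 alternatives, 53 kept the side of the threshold without a reversal of direction, among them all 7 for the density ratio (0.666 to 0.790). For that ratio, the span from first peak start to last peak end gave the main value of 0.692 again. The 53 also take in V minus the others for support by both replicates among the top 50% by score, which was 0 points. The V centre share passed the threshold in the replicate 1 list (41.4%, known before the tests were chosen) and the top 50% by score (41.4%). The V centre share also passed in peaks found in both replicates (46.7%) and the central 50% (59.8%), and lay below 33.3% in replicate 2 (32.9%). Its difference from the other autosomes passed for peaks in both replicates (10.4 points) and the central 50% (10.9). The left share of arm peaks turned to 48.2% in replicate 1 and 48.5% in replicate 2. Support by both replicates, centre minus arms, missed the threshold in 4 of 6 alternatives. These were a 50% reciprocal overlap (2.22 points), midpoints within 100 bp (2.85), the top 50% by score (11.4) and leaving out replicate 1 (5.75). It passed with the central 50% (13.5) and without replicate 2 (19.9). V minus the others for this support passed with reciprocal overlap (5.17% against 2.32%, 2.84 points). So did replicate 2 peaks found in replicate 1 (18.3% against 12.6%, 5.64 points). Scores above the median, V minus the others, missed it at the upper quartile (3.10), in peaks of both replicates (5.31), in replicate 1 (4.89), in replicate 2 (3.69) and without X (6.78). Centre minus arms turned to -3.02 for scores and -5.91 for widths among peaks of both replicates. Widths, V minus the others, turned to -1.36 in replicate 2, and replicate 1 peaks found in replicate 2 to -0.73 in the top 50% of both lists. Gaps under 1 kb, centre minus arms, passed in the top 50% (12.0). The cause of these changes was not tested. By its definition, a reciprocal overlap of 50% leaves out pairs of very unlike width. No paired analysis was possible because replicate numbers are shared only with input libraries, which have no peak list. With depth unknown, a site without a peak may still hold TAF-1.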
